A study of Mus musculus with 36 samples.

Results

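Cxcl1, Cxcl2 and Cxcl3 are among the chemokines of the mouse that draw neutrophils into inflamed tissue. Their mRNA was followed in cultured microglia and astrocytes in which the kinase RIPK1 was engaged or inhibited. The members were the rows with these gene symbols. All 3 were listed in both tables, out of 15385 genes in the microglial table and 14551 in the astrocyte table, and all 3 passed the filter on low values in both, which kept 10524 and 13842 genes.

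Both cell types were grown from the brains of C57BL/6 mice 2 to 4 days old, with brains pooled and 1 flask for each mouse. They were sorted on day 12 of culture, microglia by CD11b and astrocytes with an APC selection kit from what that sort left behind, and later treated for 4 h. T stands for TNF, 5z for 5z-7, an inhibitor of the kinase TAK1, S for a Smac mimetic, Z for zVAD, a pan-caspase inhibitor, and N for Nec-1s, which blocks the kinase activity of RIPK1. In microglia, TNF with 5z-7 (T/5z) engages RIPK1-dependent apoptosis and TNF with the Smac mimetic and zVAD (T/S/Z) engages necroptosis. In astrocytes the study saw no loss of viability that depended on the kinase activity of RIPK1 with either mixture. Microglia had 4 libraries for each of 6 treatments, namely the vehicle DMSO, N, T/5z, T/5z/N, T/S/Z and T/S/Z/N. Astrocytes had 3 libraries for each of 4 treatments, namely DMSO, N, T/S/Z and T/S/Z/N. The treatments held neither TNF alone nor the inhibitors without TNF, so the parts of each mixture cannot be told apart.

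These chemokines belong to the CXC family and carry the ELR motif, 3 residues in front of the paired cysteines that direct them to the receptor Cxcr2, which neutrophils display. Their genes are silent or nearly so in resting tissue. They are switched on within hours by TNF, IL-1 and bacterial products through NF-κB, and the short life of their mRNA, which rests on AU-rich elements in the 3′ untranslated region, ends the response. In the brain and spinal cord, glia and endothelium are known sources, and their release precedes the entry of neutrophils.

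The genes lie in one cluster on the plus strand of chromosome 5 (mouse build GRCm38). Cxcl3 (ENSMUSG00000029379) starts 105.138 kb before Cxcl1 (ENSMUSG00000029380), and Cxcl2 (ENSMUSG00000058427) starts 12.63 kb after it. The sequences in front of the genes are shown because all 3 hold the same kappaB-type element. The stretches are from the RefSeq promoter set (GRCm38.p6, plus strand), run 5′ to 3′ and end before the transcript start of both RefSeq and the deposited annotation. Capitals mark the letters GGGAATTTC, an NF-κB type site, and the letters ATAAAAG, which resemble the element at which general transcription factors assemble and are called the TATA type element here. They cover chr5:90890995-90891240 for Cxcl1, chr5:90903649-90903870 for Cxcl2 and chr5:90785851-90786100 for Cxcl3.
Cxcl1: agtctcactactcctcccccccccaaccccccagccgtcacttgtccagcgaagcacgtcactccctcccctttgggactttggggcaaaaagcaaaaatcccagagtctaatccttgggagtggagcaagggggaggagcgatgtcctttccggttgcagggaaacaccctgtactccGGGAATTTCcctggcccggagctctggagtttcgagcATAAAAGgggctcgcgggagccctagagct
Cxcl2: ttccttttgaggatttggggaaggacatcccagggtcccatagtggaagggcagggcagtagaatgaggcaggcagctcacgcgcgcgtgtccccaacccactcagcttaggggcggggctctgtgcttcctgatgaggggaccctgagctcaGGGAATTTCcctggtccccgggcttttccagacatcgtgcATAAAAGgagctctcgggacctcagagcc
Cxcl3: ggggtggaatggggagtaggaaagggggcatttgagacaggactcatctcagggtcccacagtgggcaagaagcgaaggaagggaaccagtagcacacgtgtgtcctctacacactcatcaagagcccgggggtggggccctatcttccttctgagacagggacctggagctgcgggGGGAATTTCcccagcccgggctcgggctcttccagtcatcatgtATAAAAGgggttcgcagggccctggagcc

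The NF-κB type site began 71 bases before the RefSeq start in Cxcl1, 97 bases before it in Cxcl2 and 73 bases before it in Cxcl3. The TATA type element followed in each, with its first base 37, 40 and 44 bases after the first base of the NF-κB type site in Cxcl1, Cxcl2 and Cxcl3. Searched on both strands, GGGAATTTC was found in 85 of 32544 distinct RefSeq promoters of 300 bases (0.261%), and ATAAAAG in 1765 of them (5.42%). TGANTCA, an AP-1 type site, was found in 7.79% of all promoters and in none of these 3. The motifs did not overlap one another. Their letters were chosen after the 3 promoters had been read, so the shares describe how rare the letters are and are not a test, and a match is not a bound site.

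The transcripts resembled one another unequally. Coding sequences of Cxcl2 and Cxcl3 were identical at 89.8% of 303 aligned positions, those of Cxcl1 and Cxcl2 at 76.6% and those of Cxcl1 and Cxcl3 at 73.3% (GENCODE M21 transcripts, global alignment). Of 2159 stretches of 50 bases in Cxcl2 transcripts, 126 were also found in another gene, which was Cxcl3. Of 3587 stretches in Cxcl3 transcripts, 179 were found in Cxcl2 or in genes outside the family, and of 3672 stretches of 100 bases 69 were found in Cxcl2 and in no other gene. None of the 1970 stretches of 50 bases of Cxcl1 was shared. The longest annotated 3′ untranslated region held the pentamer ATTTA 7 times in Cxcl1 (592 bases), 11 times in Cxcl2 (1494 bases) and 5 times in Cxcl3 (645 bases), against a median of 1 over 21173 genes. In 0.6%, 2.41% and 2.07% of these genes the pentamer was at least as dense as in Cxcl1, Cxcl2 and Cxcl3. How the authors' counting treated shared reads is not given in the sources used here.

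Values are log2(FPKM + 1), where FPKM is fragments per kilobase of exon, scaled to the depth of the library, as deposited. Tests between groups are limma fits over all genes that passed the filter, with 2-sided p-values adjusted by Benjamini and Hochberg. A gene is said to have risen or fallen when its adjusted p was under 0.05 and its fold change above 1.5. Averaged over the 6 microglial treatments, every gene had the same value in replicates 1 to 4, to within 6.67e-05, so levels of single libraries had been moved there and some lay slightly below 0. If this moved all libraries of a replicate number alike for each gene, differences between treatments of the same number are as measured. Total counts were not among the files used here. Steps between low values were sought in replicate 4 alone of the microglial replicates. There Cxcl1 in DMSO lay at 4.99 times and Cxcl3 at 8.99 times the estimated worth of 1 read, so these unstimulated levels rested on few reads. The study's methods call replicates biological in general, as single mice or as cells of separate litters, without saying which holds for these libraries, and the labels say that brains were pooled. The p-values measure the spread between these libraries. In microglia this is the spread of the moved values, and the SDs and permutations given below rest on it too. Equal replicate means also tie the microglial libraries of a number to one another, so they are not independent. The defining markers matched the labels. Summed FPKM of 15 microglial markers was 15811 to 19508 in microglia and 90.9 to 157.6 in the astrocyte cultures. In bulk RNA, more cells of a type and more RNA per cell cannot be told apart.

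In unstimulated microglia, Cxcl2 was the one member with a clear level. Its log2 values in DMSO were 2.08, 2.77, 2.41 and 2.12, against -0.04, 0.39, 0.68 and 0.32 for Cxcl1 and 0.19, 0.41, 1.00 and 0.51 for Cxcl3. Every value of Cxcl2 was higher than every value of the other members, and Cxcl2 made up 85.5% ± 9.79 (SD, n = 4) of the summed FPKM of the 3 genes. Nec-1s alone left the members where they were within the spread. The log2 difference from DMSO was -0.17 (SE 0.13) for Cxcl1, -0.28 (SE 0.14) for Cxcl2 and 0.00 (SE 0.12) for Cxcl3, with limma adjusted p of 0.731, 0.609 and 1.00. Among all genes tested, limma called 0% for Nec-1s against DMSO in microglia, and 892 had an unadjusted p under 0.05. Other settings of the fit called none, except that leaving out replicate 4 called 1 gene.

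**Figure D1:**
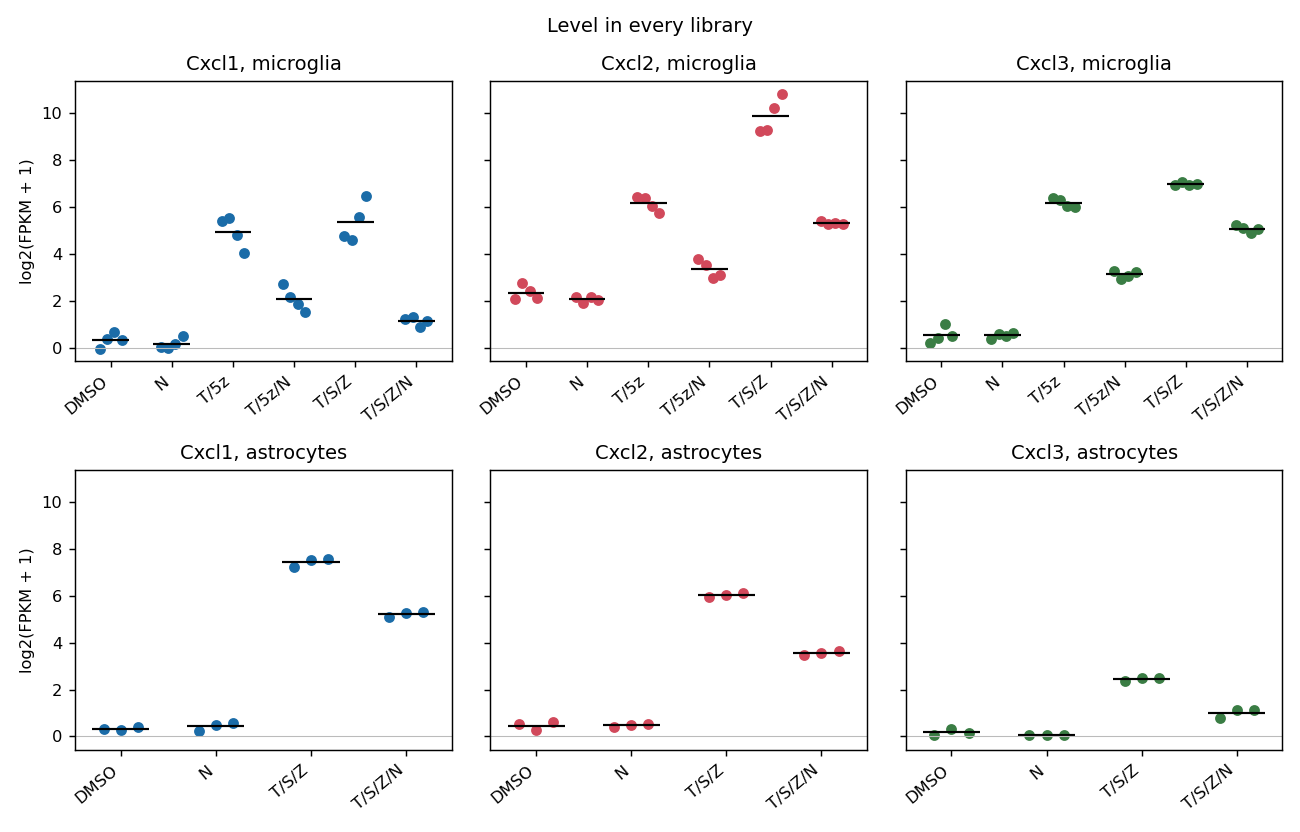
Log2(FPKM + 1) of Cxcl1, Cxcl2 and Cxcl3 in every library, by treatment; points are libraries in order of replicate number and lines are group means. Every stimulated library lies above every DMSO and N library of its cell type; Cxcl2 is highest in microglia with T/S/Z (9.26 to 10.83) and Cxcl1 in astrocytes with T/S/Z (7.25 to 7.56).

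T/5z raised all 3 members in microglia, and each went up in all 4 pairs of libraries. Cxcl1, a main ligand of Cxcr2 made by tissue cells and macrophages, had log2 values of 5.38, 5.53, 4.81 and 4.05, which gave a log2 change of 4.61 (SE 0.27, limma adjusted p = 1.09e-05). Cxcl2, known as a product of macrophages and neutrophils themselves, had values of 6.45, 6.38, 6.04 and 5.74, a change of 3.81 (SE 0.13, adjusted p = 1.21e-06). Cxcl3, a close relative of Cxcl2, had values of 6.39, 6.31, 6.05 and 6.02, a change of 5.66 (SE 0.17, adjusted p = 7.58e-07). None of these groups overlapped with DMSO. The change of Cxcl3 was the 6th largest rise among the genes tested, that of Cxcl1 the 15th and that of Cxcl2 the 28th, in a comparison in which 11.1% of genes rose and 13.3% fell.

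T/S/Z raised the members as well, with a very different balance. Cxcl2 reached log2 values of 9.26, 9.28, 10.22 and 10.83. This was a change of 7.55 (SE 0.30, limma adjusted p = 6.24e-07), and with 614 to 1820 FPKM Cxcl2 stood between the 33rd and the 132nd place of all genes in its library. Cxcl3 had values of 6.94, 7.07, 6.92 and 6.96, a change of 6.45 (SE 0.13, adjusted p = 5.35e-08). Its 4 libraries had an SD of 0.06, against 0.76 for Cxcl2 and 0.87 for Cxcl1. Cxcl1 had values of 4.75, 4.61, 5.60 and 6.49, a change of 5.02 (SE 0.26, adjusted p = 2.45e-06). With T/S/Z, 12.2% of genes rose and 17.5% fell. Both stimuli were set against the same DMSO libraries.

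Set directly against T/5z, T/S/Z gave more Cxcl2 and slightly more Cxcl3, and no distinct difference in Cxcl1. The log2 difference was 3.75 for Cxcl2 (SE 0.35, limma adjusted p = 0.000238, higher in 4 of 4 pairs) and 0.78 for Cxcl3 (SE 0.07, adjusted p = 0.00019, 4 of 4 pairs). For Cxcl1 it was 0.42 (SE 0.50, adjusted p = 0.534), with -0.64 and -0.92 in replicates 1 and 2 and 0.78 and 2.44 in replicates 3 and 4. In this comparison 9.83% of all genes were called in either direction. Without replicate 4 the difference of Cxcl1 turned to -0.26.

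The make-up of the summed FPKM followed the stimulus. After T/5z, Cxcl3 gave 41.8% ± 4.6, Cxcl2 40.6% ± 0.725 and Cxcl1 17.6% ± 4.33 (SD, n = 4) of a sum of 176.1 FPKM. After T/S/Z, Cxcl2 alone gave 84.4% ± 4.89, Cxcl3 12.0% ± 5.38 and Cxcl1 3.57% ± 0.575 of a sum of 1232 FPKM, which ranged from 762 to 2033 between libraries. FPKM is per kilobase of exon, so levels of the members are set side by side within a table, subject to the exon length given for each gene and to the reads that Cxcl2 and Cxcl3 share.

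**Figure D2:**
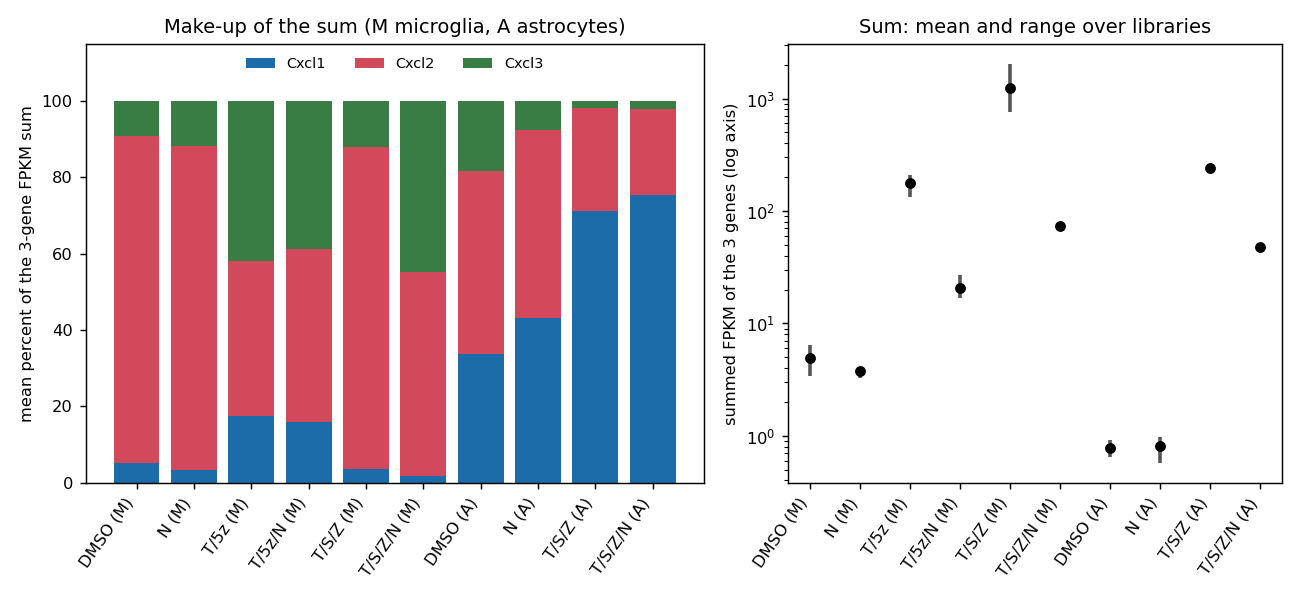
Left, mean percent of the summed FPKM of the 3 genes that each gene gave, by treatment in microglia (M) and astrocytes (A); right, that sum on a log axis, with the mean as a point and the range over libraries as a line. Cxcl2 gave 84.4% in microglia and Cxcl1 71.3% in astrocytes after T/S/Z; the sum was 1232 FPKM in microglia and 243 in astrocytes.

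How far the members moved apart was compared by exact permutation of the 4 against 4 libraries (70 splits, 2-sided, 12 tests, smallest p 0.0286, which adjusts to 0.049 here). After T/5z, Cxcl3 rose by 1.06 more than Cxcl1 and by more than Cxcl2, whose change was lower by 1.86 on the log2 scale (Cxcl2 minus Cxcl3 -1.86), each with an exact adjusted p of 0.049. The change of Cxcl2 was also below that of Cxcl1 (-0.80, exact adjusted p = 0.049). After T/S/Z, the change of Cxcl2 exceeded that of Cxcl1 by 2.53 and that of Cxcl3 exceeded it by 1.42 (exact adjusted p = 0.049 each), while Cxcl2 and Cxcl3 differed by 1.11 with pairs from -0.15 to 2.25 (exact adjusted p = 0.114). With 0.1 in place of 1 added before the log none of the 12 passed. For T/5z Cxcl2 minus Cxcl1 was then -2.48, and for T/S/Z it was 0.85, Cxcl3 minus Cxcl1 was 0.63 and 0.99, and Cxcl2 minus Cxcl3 was -3.11 and, turned in sign, -0.14. With 5 added, the difference between Cxcl2 and Cxcl1 after T/5z turned to 0.31. These permutations leave out the replicate number, and an exact sign-flip permutation within it, which cannot give a p below 0.125, ended every call (adjusted p = 0.167).

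Adding Nec-1s to T/5z brought all 3 members down by nearly the same amount. With T/5z/N, Cxcl1 stood at 2.70, 2.17, 1.87 and 1.53, Cxcl2 at 3.77, 3.52, 2.99 and 3.12, and Cxcl3 at 3.28, 2.92, 3.05 and 3.25. No library with Nec-1s reached the lowest library without it. The log2 changes against T/5z were -2.88 (SE 0.12, limma adjusted p = 1.77e-06), -2.80 (SE 0.07, adjusted p = 4.1e-07) and -3.07 (SE 0.09, adjusted p = 4.1e-07) for Cxcl1, Cxcl2 and Cxcl3. Differences between the members in this change were -0.19 to 0.26, with exact adjusted p of 0.343 to 0.714. In this comparison 4.52% of genes fell and 2.64% rose. Mean FPKM with Nec-1s was 10.5%, 13.2% and 10.7% of that with T/5z for Cxcl1, Cxcl2 and Cxcl3.

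Adding Nec-1s to T/S/Z split the members. Cxcl1 went to 1.22, 1.32, 0.90 and 1.14, and Cxcl2 to 5.39, 5.27, 5.32 and 5.30, while Cxcl3 went to 5.22, 5.13, 4.89 and 5.05. The log2 changes against T/S/Z were -4.22 (SE 0.31, limma adjusted p = 3.6e-05) for Cxcl1, -4.58 (SE 0.25, adjusted p = 9.36e-06) for Cxcl2 and -1.90 (SE 0.06, adjusted p = 7.52e-07) for Cxcl3. Mean FPKM with Nec-1s was 2.63% of that with T/S/Z for Cxcl1, 3.67% for Cxcl2 and 26.2% for Cxcl3. The change of Cxcl3 was smaller in size than that of Cxcl1 by 2.31 and than that of Cxcl2 by 2.68 (Cxcl2 minus Cxcl3 -2.68, exact adjusted p = 0.049 each), and every pair showed this. Paired by replicate number these calls were lost as well (exact sign-flip adjusted p = 0.167). Cxcl2 minus Cxcl1 was -0.36 (exact adjusted p = 0.0857). In this comparison 6.72% of genes fell and 5.35% rose.

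The log2 fall with Nec-1s differed between the stimuli in opposite directions for Cxcl2 and Cxcl3. In the interaction over the 4 stimulated groups, which called 6.47% of genes in either direction, the effect with T/5z minus that with T/S/Z was 1.78 for Cxcl2 (SE 0.42, limma adjusted p = 0.00768), a larger fall with T/S/Z. For Cxcl3 it was -1.16 (SE 0.11, adjusted p = 8.65e-06), a larger fall with T/5z. Both held in 4 of 4 replicate numbers. For Cxcl1 it was 1.34 (SE 0.57, adjusted p = 0.0979), positive in 3 of 4, and it passed the threshold when 0.1 was added before the log (1.74, adjusted p = 0.0491).

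**Figure D3:**
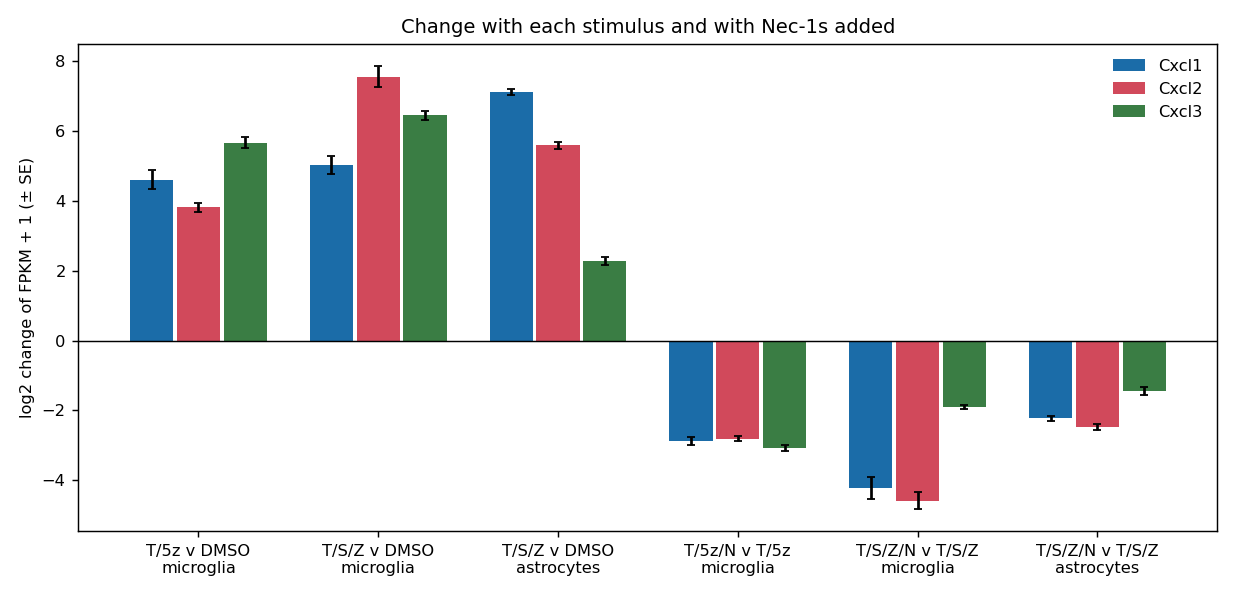
Log2 change of FPKM + 1, with its SE from limma, for each stimulus against DMSO (left) and for Nec-1s added to each stimulus (right) in microglia and astrocytes. Bars above 0 are rises; the 3 genes fell by like amounts with Nec-1s after T/5z (-2.80 to -3.07), while after T/S/Z in microglia the change of Cxcl3 (-1.90) was smaller than those of Cxcl1 (-4.22) and Cxcl2 (-4.58).

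Nec-1s did not bring any member back to its DMSO level. T/5z/N stood above DMSO by 1.73 on the log2 scale for Cxcl1 (SE 0.24, limma adjusted p = 0.00057), 1.01 for Cxcl2 (SE 0.16, adjusted p = 0.00144) and 2.60 for Cxcl3 (SE 0.15, adjusted p = 5.05e-06). T/S/Z/N stood above DMSO by 0.81 for Cxcl1 (SE 0.16, adjusted p = 0.00446), 2.98 for Cxcl2 (SE 0.12, adjusted p = 2.42e-06) and 4.54 for Cxcl3 (SE 0.16, adjusted p = 1.22e-06). All 6 differences held in 4 of 4 pairs, where 6.16% of all genes were called higher with T/5z/N and 6.2% with T/S/Z/N. The rise of Cxcl3 with T/S/Z/N was the 5th largest of all genes tested. With each gene's own variance in place of the moderated one, the calls of Cxcl1 and Cxcl2 for T/5z/N (adjusted p = 0.0612 and 0.0779) and of Cxcl1 for T/S/Z/N (0.0822) were lost, and the last was also lost with all groups in one fit (adjusted p = 0.0599) and, for its size, with 5 added before the log (log2 change 0.23).

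With the kinase inhibited, the stimuli still left different patterns. T/S/Z/N was higher than T/5z/N by 1.97 for Cxcl2 (SE 0.11, limma adjusted p = 1.06e-05) and by 1.95 for Cxcl3 (SE 0.07, adjusted p = 2.16e-06), and lower for Cxcl1 (-0.92, SE 0.15, adjusted p = 0.00279). Each direction held in 4 of 4 pairs. Cxcl2 was the 2nd and Cxcl3 the 3rd largest rise, where 3.38% of genes were called in either direction. The call of Cxcl1 was lost with its own variance (adjusted p = 0.11), with all groups in one fit (adjusted p = 0.0671) and, for its size, with 5 added before the log (log2 change -0.41).

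As a share of the log2 rise, Nec-1s removed 63.4% ± 9.58 of that of Cxcl1, 74.2% ± 9.88 of Cxcl2 and 54.3% ± 4.83 of Cxcl3 after T/5z (SD over 4 replicate numbers). After T/S/Z it removed 83.5% ± 9.63, 60.4% ± 4.40 and 29.7% ± 3.66. The share of Cxcl3 after T/S/Z ran from 25.5% to 34.4%, below every value of the other members. On mean FPKM, 90.3%, 92.2% and 89.9% of the rise after T/5z was removed for Cxcl1, Cxcl2 and Cxcl3, and 98.0%, 96.7% and 74.1% of that after T/S/Z. The share of Cxcl2 was thus lower after T/S/Z than after T/5z on the log2 scale and higher on mean FPKM, while that of Cxcl3 was lower on both, and these differences between the stimuli were not tested.

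**Figure D4:**
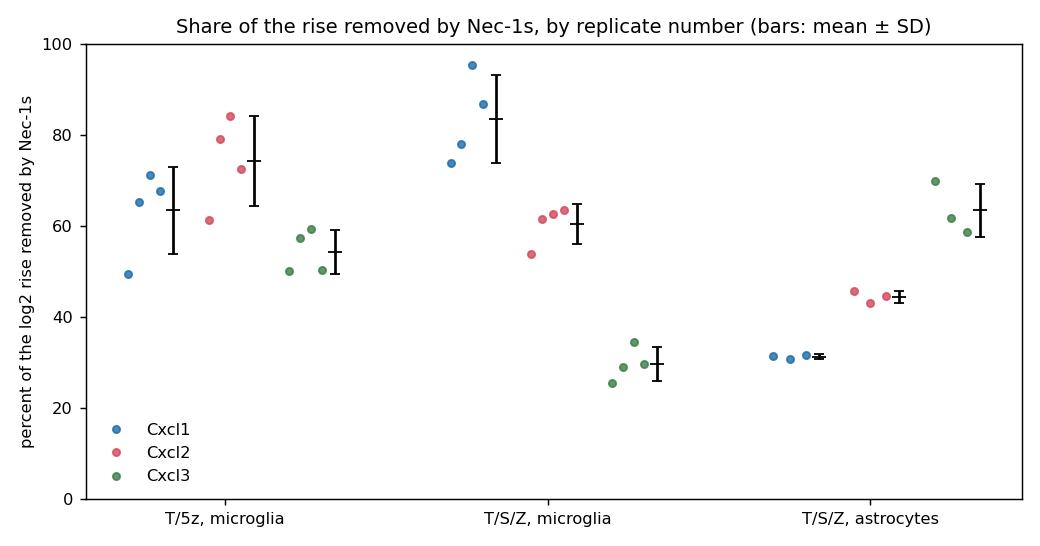
Percent of the log2 rise over DMSO that Nec-1s removed, by replicate number (points), with mean ± SD. In microglia after T/S/Z the order runs from Cxcl1 (83.5%) to Cxcl3 (29.7%); in astrocytes after T/S/Z it runs from Cxcl3 (63.4%) to Cxcl1 (31.3%).

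The order of levels over the treatments differed by member. For Cxcl1 in microglia it ran from N and DMSO through T/S/Z/N, T/5z/N and T/5z to T/S/Z, and the neighbours N and DMSO, and T/5z and T/S/Z, did not differ beyond their spread. For Cxcl2 and Cxcl3 it ran from N and DMSO, which did not differ beyond their spread, through T/5z/N, T/S/Z/N and T/5z to T/S/Z. This neighbouring pair was chosen for a test after the order had been seen. T/5z was above T/S/Z/N by 0.83 for Cxcl2 (SE 0.11, limma adjusted p = 0.00103) and by 1.12 for Cxcl3 (SE 0.06, adjusted p = 1.55e-05), the former call being lost with the gene's own variance (adjusted p = 0.0619), where 8.6% of all genes were called. For Cxcl1 this pair was far apart (3.80, SE 0.20, adjusted p = 1.89e-05), the largest rise of all genes tested in that comparison. In astrocytes DMSO and N came lowest, followed by T/S/Z/N and then T/S/Z for every member.

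In astrocytes, Cxcl1 had the highest level of the members after T/S/Z and T/S/Z/N, and Cxcl2 the highest mean in DMSO (0.385 FPKM, against 0.261 for Cxcl1). Unstimulated levels were low for all 3, with log2 values in DMSO of 0.34, 0.28 and 0.38 for Cxcl1, 0.52, 0.26 and 0.60 for Cxcl2, and 0.08, 0.31 and 0.14 for Cxcl3. Nec-1s alone gave differences of 0.10 (SE 0.11), 0.01 (SE 0.12) and -0.09 (SE 0.11), with limma adjusted p of 0.936 to 0.998 in a comparison that called 0.0144% of genes. In the N libraries Cxcl3 was 0.057 to 0.0586 FPKM, between the 14531st and the 14538th place of 14551 genes. Its log2 values there, 0.080 to 0.082, lay close to those of Camp, a neutrophil marker (0.083 to 0.085). Whether they are a floor of the deposited values or a level was not tested.

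T/S/Z brought Cxcl1 to 7.25, 7.51 and 7.56, a log2 change of 7.11 (SE 0.09, limma adjusted p = 5.34e-08) and the 4th largest rise among 13842 genes. Cxcl2 came to 5.96, 6.05 and 6.12, a change of 5.58 (SE 0.10, adjusted p = 1.73e-07), the 10th largest. Cxcl3 came to 2.38, 2.49 and 2.49, a change of 2.28 (SE 0.11, adjusted p = 1e-05). All went up in 3 of 3 pairs, where 6.39% of genes rose and 8.99% fell. The median change of all genes was -0.11. The change of Cxcl3 was below that of Cxcl1 by 4.83 ± 0.217 and below that of Cxcl2 by 3.30 ± 0.259 (Cxcl3 minus Cxcl1 -4.83, Cxcl2 minus Cxcl3 3.30; SD of 3 pairs), and 3 against 3 libraries allow no exact p below 0.1. Cxcl1 gave 71.3% ± 1.37, Cxcl2 26.9% ± 1.29 and Cxcl3 1.85% ± 0.0903 (SD, n = 3) of a sum of 243 FPKM. The astrocyte annotation gives Cxcl3 3498 bases of exon, against 1016 in the microglial one, and a longer length lowers FPKM for the same reads.

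With Nec-1s added, all 3 members fell in astrocytes and remained above DMSO. Mean FPKM was 20.9% of that with T/S/Z for Cxcl1, 16.7% for Cxcl2 and 22.9% for Cxcl3. T/S/Z/N libraries held 5.08, 5.28 and 5.29 of Cxcl1, 3.48, 3.56 and 3.65 of Cxcl2, and 0.78, 1.14 and 1.11 of Cxcl3. Against T/S/Z the log2 changes were -2.22 (SE 0.08, limma adjusted p = 4e-05), -2.48 (SE 0.08, adjusted p = 4e-05) and -1.45 (SE 0.10, adjusted p = 0.000595). They were the 7th, 6th and 13th largest falls where 1.59% of genes fell and 1.51% rose. Against DMSO, Cxcl1 remained higher by 4.88 (SE 0.09, adjusted p = 3.09e-06), Cxcl2 by 3.10 (SE 0.10, adjusted p = 1.99e-05) and Cxcl3 by 0.83 (SE 0.10, adjusted p = 0.00299), where 4.36% of genes were called higher. Against N, Cxcl1, Cxcl2 and Cxcl3 were higher by 4.78, 3.09 and 0.93 where 8.54% of genes were called, a pair also chosen after the order had been seen. With each gene's own variance, which leaves few degrees of freedom with 3 pairs, the calls of Cxcl1 and Cxcl3 against T/S/Z (adjusted p = 0.167 and 0.196) of Cxcl2 and Cxcl3 against DMSO (0.0679 and 0.104) and of Cxcl3 against N (0.1) were lost. With 5 added before the log, Cxcl3 was 0.23 above DMSO and 0.25 above N, under the fold minimum.

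Nec-1s removed 31.3% ± 0.460 of the log2 rise of Cxcl1 in astrocytes, 44.5% ± 1.3 of that of Cxcl2 and 63.4% ± 5.79 of that of Cxcl3 (SD, n = 3). Values of the 3 members did not overlap, and the order was the reverse of that in microglia after T/S/Z. On mean FPKM the shares were 79.2%, 83.8% and 79.5% for Cxcl1, Cxcl2 and Cxcl3, without that order.

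Set side by side, with no test because cell type, the provider named in the labels and table cannot be told apart, mean FPKM after T/S/Z in astrocytes was 374% of that in microglia for Cxcl1, 6.13% for Cxcl2 and 3.59% for Cxcl3. The 15 microglial markers stood at 0.177% to 18.7% of their microglial level in the same astrocyte libraries, with a median of 0.449%. The exon length given for each gene differed between the tables, at 953 and 1875 bases for Cxcl1, 1859 and 2068 for Cxcl2 and 1016 and 3498 for Cxcl3 in microglia and astrocytes, so the levels are not strictly on 1 scale.

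Markers of other cells moved in astrocyte cultures. The summed FPKM of 5 fibroblast and mural cell markers was 378 to 419 in DMSO, 84.3 to 95.2 with T/S/Z and 325 to 336 with T/S/Z/N, and all 5 were detected. The 15 microglial markers summed to 146.1 to 156.0, 90.9 to 96.4 and 131.5 to 136.9 in these groups, lower where the chemokines were highest. Endothelial markers, 2 of 5 listed, summed to 15.99 to 17.4, 3.29 to 4.02 and 9.54 to 10.8. Of 11 neutrophil markers, 2 were listed in astrocytes and 6 in microglia. Their sum was 1.21 to 1.3 in DMSO and 1.51 to 2.26 with T/S/Z in astrocytes, and 27.2 to 43.9 and 20.1 to 34.2 in microglia, most of it Csf3r. In microglia, mean FPKM of 8 of 10 astrocyte markers was higher with both stimuli than in DMSO, and lower again when Nec-1s was added. Glul was lower with both and Aldh1l1 was mixed (2.46 in DMSO, 2.66 after T/5z, 2.39 after T/S/Z). The count is of directions of means, without a test, and 7 of the 10 markers passed the filter. For some of the 8, log2 values with T/5z overlapped those in DMSO. Among them were Aldoc (0.75 to 1.27 against 0.84 to 0.95) and S100b (0.27 to 0.68 against 0.16 to 0.53). The sum of all 10 of 174.9 to 234.8 FPKM in DMSO, 81.2 to 106.6 after T/5z, 111.6 to 132.3 after T/S/Z, was mostly Glul, glutamine synthetase, at 167.8 to 225.7, 69.0 to 86.7 and 95.4 to 115.4. Without Glul, left out after its values were seen, the other 9 ran the opposite way, from 7.17 to 9.14 in DMSO to 12.1 to 22.2 (T/5z) and 13.7 to 19.9 (T/S/Z), and stood at 8.15 to 8.95 with T/5z/N and 4.88 to 6.02 with T/S/Z/N. Mean FPKM of Gfap, the filament protein of astrocytes, was 2.29 in DMSO, 4.80 with T/5z, 5.46 with T/S/Z, 2.22 with T/5z/N and 1.57 with T/S/Z/N, and that of Gja1, a gap junction protein, was 0.404, 1.55, 1.68, 0.404 and 0.314. The sum of the 9 in microglia was 0.248% of that in astrocyte cultures in DMSO, 0.56% with T/S/Z and 0.189% with T/S/Z/N, set side by side across tables that were normalized separately.

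Further lists were followed in microglia. The 5 fibroblast and mural cell markers summed to 5.14 to 6.84, 9.45 to 16.3 and 3.88 to 6.51 in DMSO, T/5z and T/S/Z, to 5.62 to 6.83 in T/5z/N, and to 2.71 to 4.19 in the T/S/Z/N libraries. They were thus higher with T/5z than in DMSO and back in the DMSO range with T/5z/N, as the chemokines were higher with T/5z and lower with T/5z/N. The 3 listed endothelial markers summed to 6.28 to 8.56, 3.71 to 5.17 and 2.30 to 2.92 in DMSO, T/5z and T/S/Z. Oligodendrocyte-lineage markers, 6 of 7 listed, summed to 24.3 to 26.1 in DMSO and 18.9 to 23.0 with T/S/Z in microglia, and to 97.5 to 114.8 and 56.8 to 82.4 in astrocytes. Neuronal markers, 3 of 4 listed in microglia and 1 in astrocytes, summed to at most 1.95 in microglia and 15.6 in astrocytes. The part of these cells in the chemokine values was not tested.

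The chemokine cluster holds other genes, and they did not all follow. Within 250 kb of the members the tables listed 10 genes in microglia and 9 in astrocytes, with 8 passing the filter in each. Cxcl5, a further ELR chemokine, rose in astrocytes with T/S/Z (log2 change 3.15, SE 0.10, limma adjusted p = 1.32e-06) and did not pass the filter in microglia, where its mean log2 value was -0.22 in DMSO, 1.71 after T/5z, 0.74 after T/S/Z. Ppbp, a chemokine of platelets, rose by 0.88 (SE 0.11, adjusted p = 0.000186) and Pf4, platelet factor 4, by 0.61 (SE 0.07, adjusted p = 0.000137) in microglia with T/S/Z. In astrocytes the change of Pf4 was 0.06 and not called. Ppbp and Pf4 start at -122.723 and -118.806 kb from the start of Cxcl1, on the side of Cxcl3, whose rise was 6.45.

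On the other side of the cluster is Mthfd2l, a mitochondrial folate enzyme that starts 40.015 kb after Cxcl1 in the microglial annotation. It was not called with T/S/Z in either cell type. In microglia its change of 0.51 (SE 0.08, limma adjusted p = 0.00082) missed only the fold minimum. In astrocytes the change was 0.22 (SE 0.12, adjusted p = 0.18). Ereg and Areg, ligands of the EGF receptor that start 183 and 248 kb after Cxcl1, rose with T/S/Z in both. Ereg changed by 2.14 (SE 0.22) in microglia and 2.40 (SE 0.11) in astrocytes, and Areg by 1.28 (SE 0.16) and 1.61 (SE 0.15). With Nec-1s, Ereg fell in both (-1.83 and -0.68), while Areg fell in microglia (-1.53) and its change in astrocytes was -0.10 and not called. Cxcl5 in astrocytes changed by -0.47 with Nec-1s and was not called, unlike the 3 members. Whether the effects on Areg and Cxcl5 differ from those on the members was not tested.

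**Figure D5:**
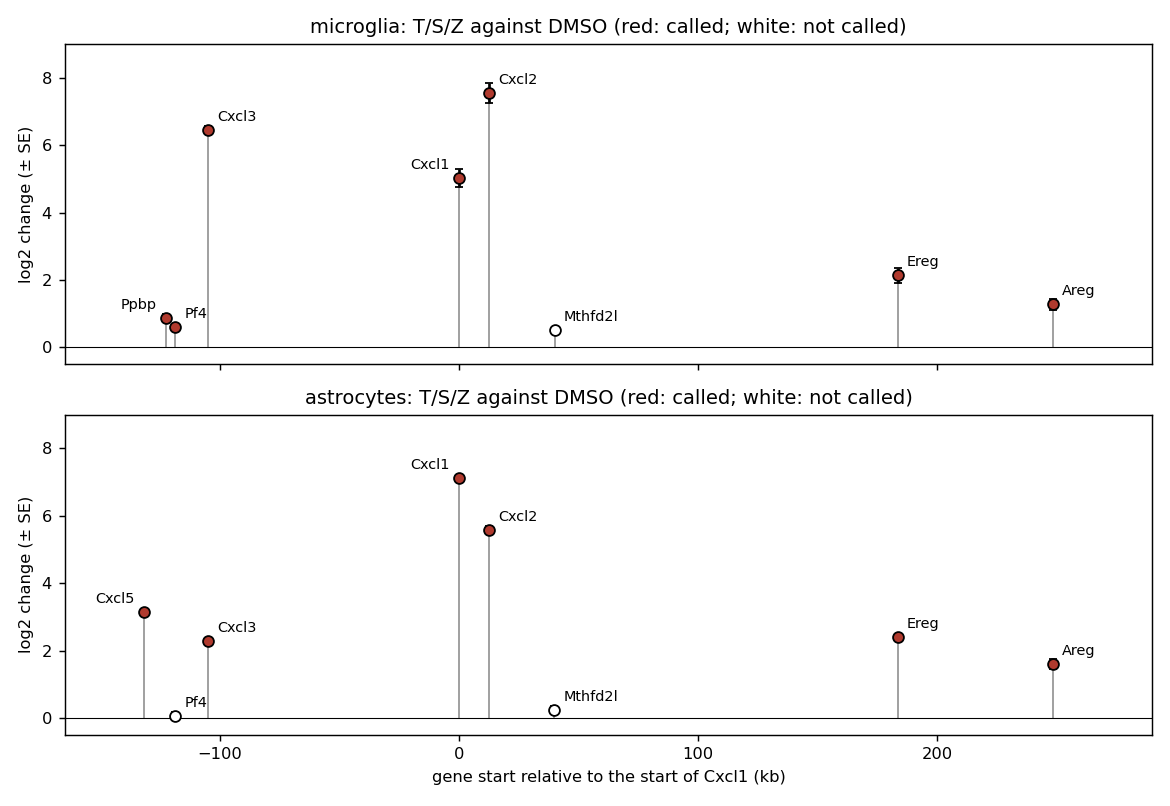
Log2 change with T/S/Z against DMSO (limma, ± SE) of the genes within 250 kb of the members that passed the filter, by the distance of their start from that of Cxcl1 in kb; red points were called and white ones were not. The members stand highest in microglia (5.02 to 7.55), next to Pf4 (0.61) and Mthfd2l (0.51).

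Of the receptors and decoys of these chemokines, Cxcr1 and Cxcr2 were listed in neither table. Ackr1, a decoy receptor, was listed in astrocytes and changed by -0.44 with T/S/Z without a call. Cxcl15 was listed in neither table. Listing depends on a filter of the authors that is not given in the sources used here.

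Genes that govern transcription and decay of chemokine mRNA were followed as a list of 21, all of them tested. In microglia 11 rose and 1 fell with T/5z, and 17 rose and 1 fell with T/S/Z. Over all genes 11.1% rose and 13.3% fell with the former and 12.2% and 17.5% with the latter. The list had median changes of 0.70 and 1.85 against -0.06 and -0.08 over all genes. With T/S/Z the largest were Tnfaip3 (4.55, SE 0.06) and Nfkbia (3.71, SE 0.08), both inhibitors of NF-κB, Egr1 (2.61, SE 0.28), an immediate early factor, and Zfp36 (2.46, SE 0.07), which binds AU-rich elements and speeds decay, with limma adjusted p of 8.9e-05 or lower. In astrocytes 17 rose with T/S/Z, where 6.39% of all genes did (median change 1.66), led by Nfkbia (4.55, SE 0.11) and Tnfaip3 (4.01, SE 0.09).

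With Nec-1s, 6 of the 21 fell after T/5z in microglia, where 4.52% of all genes fell. After T/S/Z 10 fell and 1 rose in microglia (6.72% and 5.35% of all genes), and 6 fell and 2 rose in astrocytes (1.59% and 1.51% of all genes). After T/S/Z in microglia the largest falls were those of Egr1 (-3.56, SE 0.32) and Atf3 (-3.35, SE 0.15), factors of the immediate early response, of Nfkbiz (-2.43, SE 0.17), an atypical IκB protein required for a class of secondary NF-κB targets, and of Fosl1 (-2.26, SE 0.21), a subunit of AP-1. Nfkbiz fell by 1.14 after T/5z in microglia and by 1.40 in astrocytes as well. Zc3h12a, an RNase that degrades inflammatory mRNA, fell by 1.04 after T/5z (-1.04, SE 0.19) and by 1.13 in astrocytes (-1.13, SE 0.13). With T/S/Z/N, Nfkbia and Tnfaip3 remained above DMSO by 3.06 and 2.50 in microglia and by 3.94 and 3.64 in astrocytes.

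Other factors that act on neutrophils were a list of 16, of which 14 were tested in microglia and 15 in astrocytes. Microglia given T/5z had 13 of the 14 higher, those given T/S/Z had all 14, astrocytes given T/S/Z had all 15, and none fell, where 11.1%, 12.2% and 6.39% of all genes rose. The median changes were 1.87, 2.67 and 3.43, against -0.06, -0.08 and -0.11 over all genes. In microglia with T/S/Z the largest were Tnf (6.56, SE 0.16), Il1a (5.71, SE 0.15), Icam1 (4.22, SE 0.08), an adhesion molecule for leukocytes, and Ptgs2 (4.05, SE 0.47), the inducible cyclooxygenase. In astrocytes they were Lcn2 (5.06, SE 0.18), an iron-binding protein of reactive astrocytes, Csf2 (4.23, SE 0.10) and Sele (4.06, SE 0.10), which encode GM-CSF and E-selectin, and Il1b (3.91, SE 0.10).

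With Nec-1s, 13 of 14 fell after T/5z and 12 of 14 after T/S/Z in microglia, and 9 of 15 fell and 1 rose in astrocytes. Over all genes 4.52%, 6.72% and 1.59% fell, and 1.51% rose in astrocytes. The list's median changes were -1.50, -1.79 and -0.92, against 0.04, 0.06 and 0.03. The largest falls after T/S/Z in microglia were those of Tnf (-4.93, SE 0.17) and Il1a (-4.55, SE 0.20). In astrocytes they were Il1b (-2.69, SE 0.11) and Il1a (-2.63, SE 0.10), and Mmp9, a matrix protease, rose by 1.81 (SE 0.10). Icam1 remained 3.90 above DMSO in microglia with T/S/Z/N and 3.86 in astrocytes. The deposited annotation marks some of these genes as confounded, a mark it does not define and which the members do not carry. Of the genes named here, it marks Atf3, Csf2, Ereg, Icam1, Il1a, Il1b and Zfp36 in both tables and Ackr1 and Fosl1 in astrocytes.

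The receptor pathway of IL-1 and IL-17, which induces these chemokines in many tissues, was a list of 12, with 9 tested in microglia and 12 in astrocytes. In microglia 5 rose with T/5z, where 11.1% of all genes rose, and 6 rose and 1 fell with T/S/Z (12.2% and 17.5% of all genes), and in astrocytes 7 rose (6.39% of all genes). The median changes were 0.61, 0.75 and 0.69. Il1rn, the antagonist of the IL-1 receptor, had the largest change with T/S/Z in microglia (5.10, SE 0.19) and in astrocytes (2.33, SE 0.10). With Nec-1s, 1 of 9 fell after T/5z where 4.52% of all genes fell, 3 of 9 after T/S/Z where 6.72% fell, and 2 of 12 in astrocytes where 1.59% fell. The list's median changes there were -0.29, -0.00 and -0.23, against 0.04, 0.06 and 0.03 over all genes. Il1rn changed by -2.96 (SE 0.31) in microglia after T/S/Z and by -1.21 (SE 0.09) in astrocytes.

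Genes whose values ran most like those of the members were ranked by Pearson's r. The libraries behind r share their treatments, so any gene that follows the same stimuli has a high value, and the ranking is a description. Among themselves the members had r of 0.862 to 0.911 over 24 microglial libraries and of 0.948 to 0.992 over 12 astrocyte libraries. Nearest to the mean of the 3 in microglia were Tnfsf9 (r = 0.989), the ligand of 4-1BB, Ch25h (0.986), which makes 25-hydroxycholesterol, and Ywhae (0.985), followed by Msn, Dhx15, Dda1, Gk and Ufd1 (0.981 to 0.983). In astrocytes they were Nos2 (0.998), the inducible nitric oxide synthase, Csf2 and Acod1 (0.996 each), then Ch25h, Ccl20, Bmp2 and Esm1 (0.995 to 0.996). Ch25h was on both lists. Of these, Tnfsf9, Ch25h, Ywhae, Msn, Dhx15, Dda1, Gk, Ufd1, Csf2 and Esm1 carry the mark of confounding.

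Each member had its own nearest genes in microglia. For Cxcl1 they were Ccl2 (r = 0.974) and Ccl7 (0.968), chemokines for monocytes, and Rgs16 (0.967). Ccl2 resembled Cxcl1 in standing lower with T/S/Z/N than with T/5z/N, at mean log2 values of 2.72 and 3.30. For Cxcl2 they were Ets2 (0.995), Mex3c (0.989) and Sde2 (0.987). For Cxcl3 they were Tnip1, Nlrp3 and Lcp2 (0.992 each), of which Nlrp3, the inflammasome sensor, stood at 3.45 in DMSO, 7.63 with T/5z, 8.02 with T/S/Z and 6.51 with T/S/Z/N. In astrocytes the nearest were Noct, Acod1 and Cd83 for Cxcl1 (0.998 to 0.999), Csf2, Nos2 and Map3k8 for Cxcl2 (0.996 to 0.997), and Il1b, Gdnf and Clec4e for Cxcl3 (0.990 to 0.992). Ccl2, Rgs16, Sde2, Tnip1, Lcp2 and Noct carry the same mark.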

How the data were processed

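RNA from 24 microglial and 12 astrocyte libraries was sequenced. The labels name a different provider for each cell type (Genewiz for microglia, BGI for astrocytes), whereas the study's methods name BGI for both. The authors processed the reads in OmicSoft Array Studio version 10.1.1.3 and deposited log2 values of FPKM plus 1, 1 table per cell type. The aligner, counter and annotation are not given in the sources used here; the gene coordinates are those of GRCm38. The 75th percentile was 4.11 to 4.16 in microglial and 4.73 to 4.74 in astrocyte libraries, so the tables had been scaled. Replicate means of every gene had also been made equal in microglia, by a step that is not described. Whole reads were sought in the low values of 284 to 1840 single-transcript genes per library, in the astrocytes and in replicate 4 of the microglia. A median of 80.1% and 82.9% of those values lay within 0.1 of a whole step, short of nearly all, so no count test was run, depth is unknown, and intervals for counting error are not given.

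Groups came from the labels. Genes with a log2 value of at least 1 in at least 4 microglial or 3 astrocyte libraries were tested with limma 3.58.1 in R 4.3.3 (lmFit, eBayes with trend, replicate number as a block as the study's own test was paired, libraries of the compared groups alone), with Benjamini-Hochberg adjustment over all genes tested. A call needed an adjusted p under 0.05 and a fold change over 1.5. Fold changes on this scale understate those of low genes. Tables were not compared by a test. Members were compared with each other by exact permutation (scipy 1.17.1). The limma steps were tested on simulated data. Sequences came from RefSeq promoters (GRCm38.p6) and GENCODE M21 transcripts.

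The members and the gene lists were chosen with earlier results of these data known. Named besides the members were up to 4 called genes of each list with the largest change in a comparison, the genes within 250 kb, and those nearest by Pearson's r (8 for the mean, 3 for each member; 1 result is not reported here); values of a named gene in further comparisons were added for continuity. Alternatives were other amounts added before the log, filters, scalings, variance models, fold minimums, sample sets, and the fit without the block.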

Additional observations from a re-analysis of the deposited data

Results flagged for a closer look

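The effect of Nec-1s differed between the stimuli in microglia for 2 of the 3 members, by a limma test of the difference itself over the 4 stimulated groups. For Cxcl2 the effect with T/5z minus that with T/S/Z was 1.78 (SE 0.42, adjusted p = 0.00768), with 1.15 to 2.91 in the 4 replicate numbers. For Cxcl3 it was -1.16 (SE 0.11, adjusted p = 8.65e-06), with -1.45 to -0.85. These are differences of the log2 fall. As a share of the log2 rise, Nec-1s removed less after T/S/Z than after T/5z for both genes (74.2% and 60.4% for Cxcl2, 54.3% and 29.7% for Cxcl3, after T/5z and T/S/Z), whereas on mean FPKM it removed more of Cxcl2 after T/S/Z (92.2% and 96.7%) and less of Cxcl3 (89.9% and 74.1%). Neither difference was tested.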

How the results depend on the processing

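Of 827 values recomputed under alternatives, 723 kept their direction and side of the threshold (or moved by under 1 SD), 64 lost the call, 3 gained one, 11 changed sign and 26 untested values moved by more; causes were not tested. All 48 member changes kept their call without the replicate block, which in microglia had almost nothing to remove because replicate means were already equal (Cxcl2 with T/S/Z against DMSO in microglia 7.55), without the filter and after centring, and all 75 values held after quantile normalization.

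With each gene's own variance the calls lost were, in microglia, Cxcl1 (1.73) and Cxcl2 (1.01) in T/5z/N against DMSO, Cxcl1 in T/S/Z/N against DMSO (0.81) and against T/5z/N (-0.92), and Cxcl2 in T/5z against T/S/Z/N (0.83), and, in astrocytes, Cxcl1 (-2.22) and Cxcl3 (-1.45) in T/S/Z/N against T/S/Z, Cxcl2 (3.10) and Cxcl3 (0.83) against DMSO, and Cxcl3 against N (0.93). All groups in one fit lost the same 2 Cxcl1 calls of T/S/Z/N (0.81 and -0.92). A fold minimum of 2 lost those, Cxcl3 in T/S/Z against T/5z (0.78), Cxcl2 in T/5z against T/S/Z/N (0.83), and Cxcl3 in astrocytes with T/S/Z/N against DMSO (0.83) and N (0.93). With 5 added before the log, Cxcl1 in T/S/Z/N against DMSO (0.23) and T/5z/N (-0.41) and astrocyte Cxcl3 against DMSO (0.23) and N (0.25) lost their calls, and Cxcl3 in N against DMSO turned to -0.0053. With 0.1 added, the interaction of Cxcl1 gained a call (1.74).

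Differences between members in microglia moved most with the amount added. With 0.1 added, the calls lost were Cxcl2 minus Cxcl1 (-2.48 for T/5z, 0.85 for T/S/Z), Cxcl3 minus Cxcl1 (0.63, 0.99, and 3.01 for Nec-1s after T/S/Z) and Cxcl2 minus Cxcl3 (-3.11 for T/5z, -2.68 for Nec-1s after T/S/Z), while Cxcl2 minus Cxcl1 for Nec-1s after T/S/Z (0.34) and Cxcl2 minus Cxcl3 for T/S/Z (-0.14) changed sign. With 5 added, Cxcl2 minus Cxcl1 changed sign for T/5z (0.31) and for Nec-1s after it (-0.32), and Cxcl2 minus Cxcl1 for Nec-1s after T/S/Z (-1.57) and Cxcl2 minus Cxcl3 for T/S/Z (2.15) gained a call. In astrocytes the differences with 0.1 and 5 added were, for T/S/Z, -1.78 and -1.38 (Cxcl2 minus Cxcl1), -4.53 and -4.19 (Cxcl3 minus Cxcl1) and 2.75 and 2.81 (Cxcl2 minus Cxcl3), and for Nec-1s -0.32 and -0.035, 0.20 and 1.45, and -0.52 and -1.49.

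The share removed by Nec-1s, with 0.1 and 5 added, was 51.0% and 77.0% for Cxcl1 and 45.2% and 68.0% for Cxcl3 after T/5z, 24.6% and 39.1% for Cxcl3 after T/S/Z in microglia, and 25.3% and 41.5%, 36.2% and 58.0%, and 47.0% and 74.0% for Cxcl1, Cxcl2 and Cxcl3 in astrocytes; Cxcl1 after T/S/Z in microglia was 71.8% with 0.1 and Cxcl2 66.0% with 5.

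Paired as blocks, the differences between members in microglia (-0.80, 2.53, 1.06, 1.42, 2.31, -1.86 and -2.68) could not pass an exact sign-flip permutation over 4 replicate numbers, which gives no p below 0.125 (adjusted p = 0.167); nor could 3 against 3 libraries (0.1). Leaving out 1 replicate number, these ranged over -1.03 to -0.55, 2.41 to 2.61, 0.82 to 1.16, 1.09 to 1.80, 1.94 to 2.64, -2.001 to -1.71 and -2.88 to -2.36. Values near 0 changed sign: Cxcl2 minus Cxcl1 for Nec-1s after T/5z (-0.068 to 0.14), Cxcl1 in T/S/Z against T/5z (-0.26 without replicate 4, to 0.86), Cxcl2 in N against DMSO in astrocytes (-0.098 to 0.068) and Cxcl3 in it in microglia (-0.062 to 0.16). Same-numbered astrocyte libraries correlated at -0.14 to 0.41 in their deviations (18 pairs); in microglia the check is void for the reason above.

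Counts of called genes moved by over 1.5 times with a fold minimum of 2, with 5 added and with a mean of at least 3, for example from 3118 to 1202, 1633 and 1711 for T/S/Z against DMSO in microglia. For Nec-1s after T/S/Z in astrocytes 429 genes were called, 274 without replicate 2, 761 without replicate 3 and 3 with each gene's own variance; for T/S/Z, T/S/Z/N against DMSO and T/S/Z/N against N there, own variance gave 281, 50 and 181 in place of 2130, 1257 and 1182. With 0.1 added, Nec-1s called 1239 in place of 754 after T/5z and 1976 in place of 1270 after T/S/Z in microglia, T/S/Z/N against T/5z/N 578 in place of 356, and T/S/Z/N against N in astrocytes 1783.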
